A study of Mus musculus with 12 samples.

Results

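The genes described here were 9 components of the Hedgehog signalling pathway, chosen by name: *Smo*, *Ptch1*, *Gli1*, *Gli2*, *Gli3*, *Sufu*, *Hhip*, *Disp1* and *Disp3*. The deposited table lists 57010 genes, and 16502 of them passed the filter on low counts and were tested, among them all 9 of these. They were measured by mRNA-Seq in NE-4C, a neural progenitor line that comes from the brain of p53-deficient mouse embryos, so every group shares that background. There were 12 libraries in 4 groups of 3. WT cells and *Faf2* KO cells were collected without treatment (NO), or were given all-trans retinoic acid (RA) at 1 µM for 24 h and collected on day 3 after induction. The KO was made with Cas9 and a pair of guides that remove exon 4 of *Faf2*, an adaptor of endoplasmic reticulum-associated degradation, and edited colonies were picked and expanded. The KO is labelled as 1 genotype, so *Faf2* loss and other differences of an edited line cannot be told apart. The 3 libraries of a group came from separate passages, and p-values measure the spread between passages. The time point of NO cells is labelled 0 days, so the RA groups differ from them in the labelled time as well as in RA, and those cannot be told apart either.

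Hedgehog ligands are made in a sending cell, released with the help of Dispatched proteins and bound by Patched receptors on the receiving cell. Without ligand, Patched holds Smoothened (*Smo*) inactive, the Gli transcription factors are bound by Sufu, and Gli3 in particular is cut to a repressor. With ligand, Smoothened enters the primary cilium, Gli2 and Gli3 act as activators, and *Gli1*, *Ptch1* and *Hhip* are transcribed as targets. In the embryonic neural tube this pathway sets ventral cell fates and drives the division of progenitors.

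To show where Gli proteins could read these genes, the 250 bases before the start of each canonical transcript were searched on both strands for the Gli consensus GACCACCCA (TGGGTGGTC on the other strand). Of 21651 protein-coding genes, 40 held it in that window (0.18%), and among the 9 Hedgehog genes *Ptch1* alone did. In *Ptch1*, the receptor that is itself a Gli target, the match lay on the reverse strand and began 165 bases before the start. Its window is printed beside those of *Gli1*, the other classic target, and of *Gli2*, the one of the 9 with the largest RA difference in KO cells. All 3 genes are on the minus strand and the windows, from GRCm39, run 5′ to 3′ on it, with the consensus in capitals. They are chr13:63714093-63714342 for *Ptch1*, chr10:127177866-127178115 for *Gli1* and chr1:118981350-118981599 for *Gli2*. A match is only a run of letters, and no binding was measured.
Ptch1: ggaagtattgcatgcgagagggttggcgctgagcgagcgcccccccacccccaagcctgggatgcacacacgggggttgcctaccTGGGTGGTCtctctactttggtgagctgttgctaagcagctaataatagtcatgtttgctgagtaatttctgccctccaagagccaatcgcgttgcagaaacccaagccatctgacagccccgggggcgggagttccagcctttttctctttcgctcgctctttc
Gli1: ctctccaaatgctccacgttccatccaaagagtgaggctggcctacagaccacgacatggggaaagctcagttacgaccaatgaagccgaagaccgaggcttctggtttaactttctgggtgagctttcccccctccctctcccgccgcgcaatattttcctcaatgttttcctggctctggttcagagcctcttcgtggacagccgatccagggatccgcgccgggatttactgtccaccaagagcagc
Gli2: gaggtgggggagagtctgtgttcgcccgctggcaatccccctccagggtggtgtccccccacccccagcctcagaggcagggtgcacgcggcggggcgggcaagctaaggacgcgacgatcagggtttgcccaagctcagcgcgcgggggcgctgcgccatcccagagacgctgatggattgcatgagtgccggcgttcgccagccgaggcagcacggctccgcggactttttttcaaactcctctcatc

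Library totals ran from 17370049 to 30738694 estimated counts. In a library, 3 counts were taken as the floor of detection, worth 0.0838 to 0.297 CPM. CPM are counts divided by the library total multiplied by its TMM scaling factor, on a common scale. A low factor therefore raises the CPM of a library, and the 0.297 belonged to KO RA replicate 3. The library KO RA replicate 3 stood apart from the other 11. Its TMM scaling factor was 0.394 against 0.872 to 1.28, its mitochondrial share 23.5% against 9.10% to 17.7%, and its 100 highest genes took 62.5% of counts against 37.1% to 50.4%. Relative to the other KO RA libraries its median tested gene differed by −0.23 on the log2 scale. Among the Hedgehog genes the difference was −2.26 for *Gli3*, −2.18 for *Gli2*, −1.77 for *Ptch1*, −1.57 for *Sufu*, −1.48 for *Disp1*, −0.94 for *Gli1*, −0.91 for *Disp3* and −0.66 for *Smo*. *Hhip* alone of the 9 was higher there, by 0.95. Results are therefore given with and without it. WT NO replicate 3 also differed from the others of its group, with a limma-voom library weight of 0.235, against 0.053 for KO RA replicate 3 and 0.880 to 2.05 for the other 10. On the log2 scale (0.5 CPM added) it differed from the other WT NO libraries by −0.84 for *Ptch1*, −0.83 for *Gli3*, −0.75 for *Disp1* and −0.50 for *Gli2*, where the median tested gene differed by 0.01. Without it the log2 difference of KO NO from WT NO was −0.77 ± 0.52 for *Gli3*, −0.43 ± 0.47 for *Ptch1* and −0.23 ± 0.37 for *Disp1*, and 0 of the 9 were called in that comparison (background 1.32%). *Faf2* was at 36.0 to 50.0 CPM in WT NO, 35.1 to 49.1 in WT RA, 21.0 to 25.4 in KO NO and 18.7 to 36.1 in KO RA, a total over all transcripts, whether or not they hold exon 4. Of 8 neural progenitor markers, summed CPM was 281 to 336 in WT NO, 314 to 344 in WT RA, 266 to 307 in KO NO and 336 to 431 in KO RA. Among these, *Sox2* was at 23.7 to 101 CPM, *Nes* at 31.3 to 75.0 and *Cdh2* at 23.8 to 80.1 over all libraries. *Sox1*, another of them, was at 0.153 to 0.813 CPM in WT NO, 2.21 to 4.25 in WT RA, 0.118 to 0.307 in KO NO and 3.07 to 17.9 in KO RA. The sums hide opposite moves of 2 more of the 8. *Otx2* was at 120 to 163 CPM in WT NO, 106 to 135 in WT RA, 132 to 162 in KO NO and 19.4 to 104 in KO RA. *Fabp7* was at 0.387 to 0.517, 2.04 to 7.12, 0.146 to 0.391 and 15.6 to 155 CPM in the same order, with 155 in KO RA replicate 3. Of 5 pluripotency markers, *Pou5f1* was between 800 and 2780 CPM and *Nanog* between 43.6 and 173 in all libraries. The others were low or uneven. *Esrrb* was at 0.427 to 2.13 CPM, and *Zfp42* had 0 to 2 counts. *Dppa5a* ran from 0.0916 CPM in WT NO replicate 3 to 216 in KO RA replicate 3.

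Because the deposited values are already scaled by gene length, CPM can be compared between genes (plot of levels by library). In WT NO cells *Smo* was the most abundant of the 9 at 33.6 ± 1.36 CPM (SD, n = 3), followed by *Sufu* at 23.6 ± 1.94 and *Gli3* at 20.1 ± 6.25, whose ranges overlapped each other. *Disp1* at 9.88 ± 2.81, *Ptch1* at 9.12 ± 2.89 and *Gli2* at 5.43 ± 1.12 came next, and neighbours in that order overlapped. *Disp3* at 1.01 ± 0.224, *Hhip* at 0.443 ± 0.147 and *Gli1* at 0.306 ± 0.0106 were the least abundant, and their ranges were separate. *Smo* was first in all 4 groups by its mean. The order differed most in KO RA, where *Gli2* moved up to rank 3, at 23.8 ± 14.9 CPM and every neighbouring pair but 1 overlapped.

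**Figure D1:**
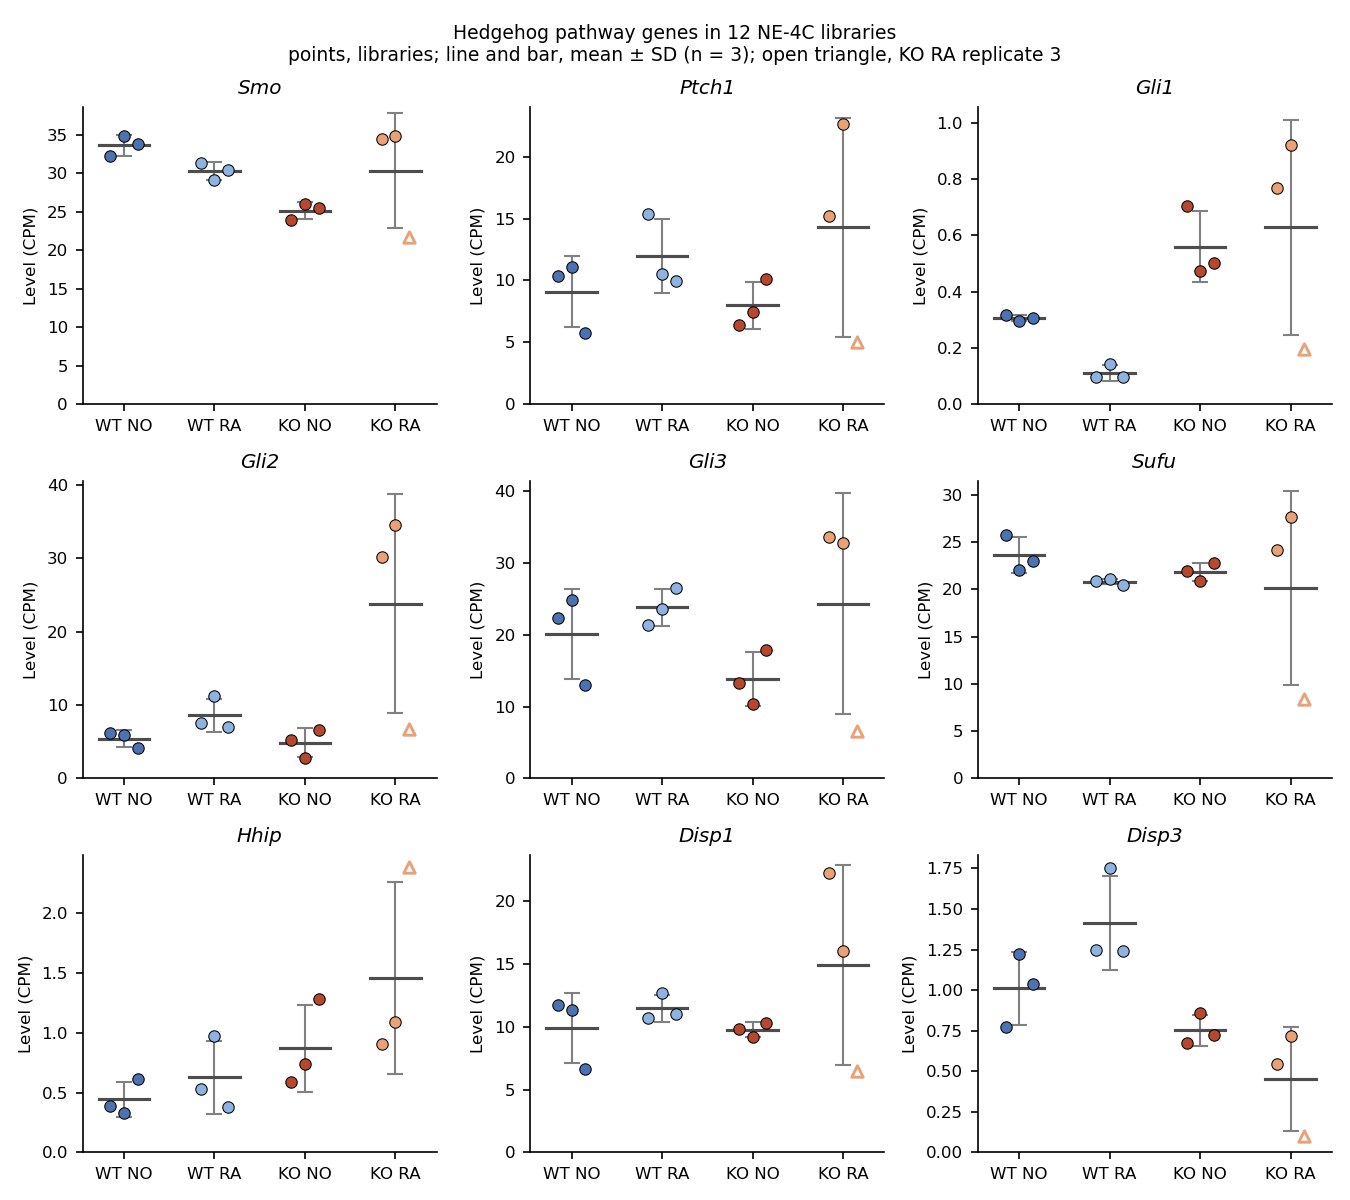
Level of each Hedgehog gene in CPM (vertical axis, from 0) in the 12 libraries by group, with the mean and SD of 3 libraries. *Gli2* reached 30.2 and 34.5 CPM in KO RA replicates 1 and 2 and 6.74 in replicate 3 (open triangle), while the other groups lay between 2.78 and 11.2.

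Gli2 is the main activator among the Gli factors, encoded on the minus strand of chromosome 1 (GRCm39, 118761858 to 118982598). Its levels were 6.20, 5.95 and 4.15 CPM in WT NO and 7.50, 11.2 and 7.07 in WT RA. In KO NO they were 5.21, 2.78 and 6.62 CPM, and in KO RA 30.2, 34.5 and 6.74. All KO RA libraries were above all KO NO libraries, but replicate 3 by only a small margin, and that replicate also lay below every WT RA library. *Gli2* rose in KO RA over KO NO by 2.29 ± 0.53 on the log2 scale (SE; adjusted p = 0.0327 by edgeR's quasi-likelihood test, Benjamini-Hochberg method over all tested genes). Without KO RA replicate 3 the rise was 2.72 ± 0.33 (adjusted p = 0.000827 by the same test). The call was lost when only the 6 libraries compared were fitted (adjusted p = 0.172, the highest of 20 alternatives). It was also lost with a replicate term (0.0869) and when any KO NO library was left out (0.0776 to 0.136). In all, 9 fits that left out 1 library lost it (adjusted p = 0.0505 to 0.136, edgeR). In WT RA over WT NO the log2 difference was 0.66 ± 0.51 (adjusted p = 0.680, the same edgeR test), with all WT RA libraries above all WT NO libraries. For the difference between the RA responses, 1.63 ± 0.73, the unadjusted p was 0.0455 in edgeR's test and the adjusted p 0.567.

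Gli3, the main repressor of the family in the absence of ligand, lies on chromosome 13 (15637809 to 15904611, plus strand). Its levels were 22.4, 24.9 and 13 CPM in WT NO, and 21.4, 23.6 and 26.5 in WT RA. They were 13.3, 10.4 and 17.9 CPM in KO NO, and 33.7, 32.8 and 6.54 in KO RA. KO NO overlapped WT NO through WT NO replicate 3, and KO RA replicate 3 was the lowest of all 12 libraries. The log2 difference of KO RA from KO NO was 0.82 ± 0.49 (adjusted p = 0.314, edgeR's quasi-likelihood test) with all libraries, and 1.25 ± 0.27 (adjusted p = 0.0115) without KO RA replicate 3. In KO NO against WT NO it was −0.54 ± 0.49 (adjusted p = 0.790, the same test).

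The ratio of the Gli genes within a library does not depend on how libraries are scaled. *Gli3* was 3.61, 4.18 and 3.14 times as abundant as *Gli2* in WT NO, 2.86, 2.10 and 3.75 times in WT RA and 2.54, 3.72 and 2.70 times in KO NO. In KO RA the ratios were 1.11, 0.951 and 0.971, so that replicate 3, which was low in each gene, had the same ratio as the other KO RA libraries. *Gli2* made up 49.1% ± 2.06 of the summed Gli CPM in KO RA, 24.7% ± 3.70 in KO NO, 26.3% ± 5.56 in WT RA and 21.4% ± 2.31 in WT NO (SD, n = 3). KO RA did not overlap any other group. The exact two-sided permutation test gave p = 0.1 for KO RA against KO NO and for KO RA against WT RA, the smallest that 3 libraries against 3 allow, and p = 0.3 for KO NO against WT NO and for WT RA against WT NO. This share was chosen after the levels had been seen.

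**Figure D2:**
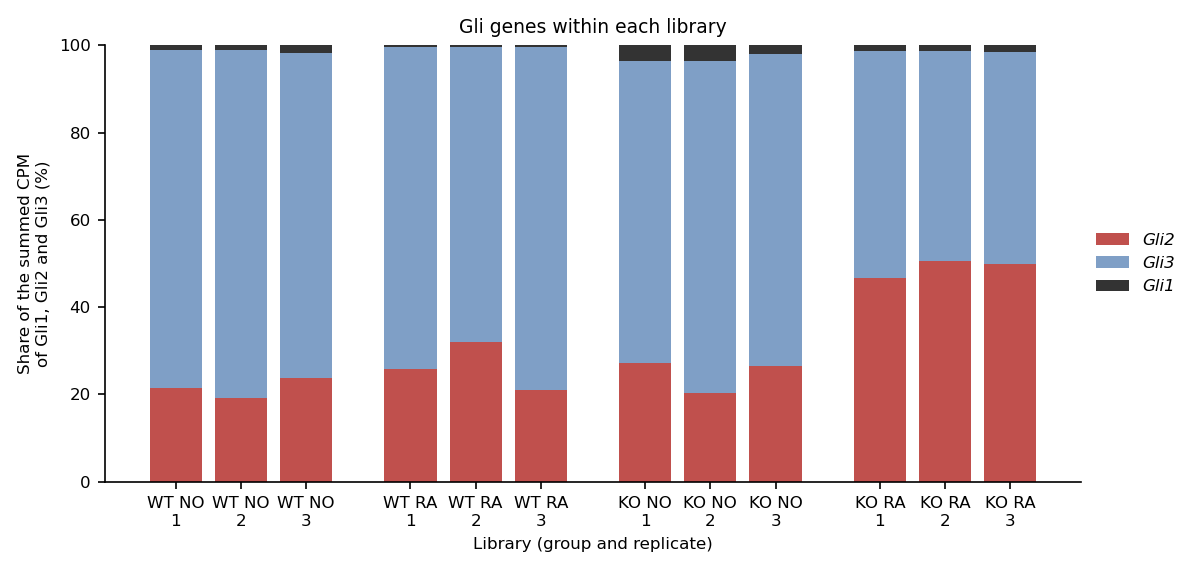
Share of *Gli2*, *Gli3* and *Gli1* in the summed CPM of the 3 genes (vertical axis, %) in each of the 12 libraries. *Gli2* took 46.8%, 50.6% and 50.0% in the KO RA libraries and 19.1% to 32.1% in the other 9.

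Gli1, an activator that is made when the pathway is on, was close to the floor (chromosome 10, 127165751 to 127177865, minus strand). It had 9, 8 and 10 counts in WT NO and 2, 3 and 2 in WT RA, where all libraries were at the floor. In KO NO it had 24, 16 and 18 counts and in KO RA 17, 27 and 2. On the CPM scale these were 0.296 to 0.317 in WT NO, 0.0955 to 0.145 in WT RA, 0.474 to 0.703 in KO NO and 0.198 to 0.920 in KO RA. KO NO libraries lay above WT NO libraries without overlap, and WT RA lay below WT NO. KO RA libraries lay above WT RA libraries in CPM, but KO RA replicate 3 was itself at the floor. It had 2 counts, where WT RA had 2, 3 and 2, so its place above WT RA rests on its TMM factor of 0.394. By summed counts the ratio was 6.65 for KO RA over WT RA (95% interval 2.98 to 17.5, which takes the length-scaled values as if they were counts of fragments and is only approximate), 1.83 for KO NO over WT NO (1.14 to 3.00) and 0.367 for WT RA over WT NO (0.135 to 0.863). None of these passed edgeR's quasi-likelihood test, with adjusted p = 0.102 for KO RA against WT RA, 0.670 for KO NO against WT NO and 0.418 for WT RA against WT NO. Without KO RA replicate 3 the difference of KO RA from WT RA passed (adjusted p = 0.0177).

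An exon of *Arhgap9*, a GTPase-activating protein, overlaps one of *Gli1* on the other strand. *Arhgap9* had 1, 0 and 1 counts in WT NO, 1, 0 and 0 in WT RA, 16, 19 and 17 in KO NO and 11, 1 and 2 in KO RA. It was thus above the floor in all KO NO libraries and in no WT library. Whether the counting used strand is not given in the sources used here, and the part of *Arhgap9* reads in the *Gli1* counts was not tested. Other exons overlap for *Smo* (*Gm13717*, same strand), *Gli3* (*Gm6556*, other strand) and 3 more Hedgehog genes. *Gm13717* and *Gm6556* were at 0.237 to 2.58 CPM in all libraries.

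Smoothened is the membrane protein that passes the signal on, and *Smo* lies on chromosome 6 (29735407 to 29762532, plus strand). Its levels were 32.2, 34.9 and 33.8 CPM in WT NO and 23.9, 26 and 25.5 in KO NO. After RA they were 31.3, 29.1 and 30.5 CPM in WT and 34.4, 34.9 and 21.7 in KO. Each untreated KO library was thus lower than each untreated WT library, and the RA groups overlapped. The log2 difference of KO NO from WT NO was −0.42 ± 0.20 and did not pass (adjusted p = 0.450, edgeR's quasi-likelihood test). It was −0.41 ± 0.10 without KO RA replicate 3, which is in neither group but adds to the shared estimate of spread, and then passed (adjusted p = 0.0269, the same test). In KO RA against KO NO the difference was 0.27 ± 0.20 (adjusted p = 0.417) with all libraries and 0.45 ± 0.11 (adjusted p = 0.0168) without that replicate, by the same edgeR test. The RA responses of KO and WT differed by 0.42 ± 0.29 (adjusted p = 0.684, edgeR).

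Sufu, which holds Gli proteins in the cytoplasm, varied little outside KO RA replicate 3 (chromosome 19, 46385324 to 46477243, plus strand). Its levels were 25.8, 22.1 and 23.0 CPM in WT NO and 20.9, 21.1 and 20.5 in WT RA. They were 21.9, 20.9 and 22.8 CPM in KO NO, and 24.2, 27.7 and 8.42 in KO RA. The other 11 libraries lay between 20.5 and 27.7 CPM, and the WT RA libraries were below the WT NO libraries. Its log2 differences ran from −0.18 to −0.04 in the 4 comparisons of groups, and none passed edgeR's test (adjusted p = 0.858 to 0.969).

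Patched 1, the receptor for Hedgehog ligands, is encoded on chromosome 13 (63656142 to 63721412, minus strand). *Ptch1* was at 10.4, 11.1 and 5.80 CPM in WT NO and 15.4, 10.5 and 9.98 in WT RA. It was at 6.39, 7.49 and 10.1 CPM in KO NO and at 15.2, 22.6 and 5.05 in KO RA. The groups overlapped in all 4 comparisons. KO RA against KO NO gave a log2 difference of 0.85 ± 0.46 (adjusted p = 0.267, edgeR's quasi-likelihood test), and 1.23 ± 0.31 (adjusted p = 0.0236) without KO RA replicate 3. Hhip, a membrane protein that binds and sequesters ligand, was near the floor with 8 to 46 counts (chromosome 8, 80692480 to 80784658, minus strand). *Hhip* was at 0.387, 0.333 and 0.610 CPM in WT NO, 0.529, 0.970 and 0.382 in WT RA, 0.586, 0.741 and 1.28 in KO NO, and 0.903, 1.09 and 2.38 in KO RA. The groups overlapped in all 4 comparisons, and KO RA replicate 3 held the highest value. The largest log2 difference was 1.19 ± 0.58 in KO RA against WT RA (adjusted p = 0.312, edgeR), which was 0.66 ± 0.58 without that replicate.

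Dispatched 1 releases lipid-modified ligand from the sending cell, and *Disp1* lies on chromosome 1 (182844978 to 183003093, minus strand). It was at 11.7, 11.3 and 6.65 CPM in WT NO, 10.7, 12.7 and 11 in WT RA, 9.81, 9.15 and 10.3 in KO NO, and 22.2, 16.0 and 6.44 in KO RA. Replicates 1 and 2 of KO RA were above all other libraries and replicate 3 was below them. The difference of KO RA from KO NO was 0.61 ± 0.38 (adjusted p = 0.323, edgeR's quasi-likelihood test), and 0.95 ± 0.23 (adjusted p = 0.0197) without replicate 3. Disp3 is a related protein with a sterol-sensing domain (chromosome 4, 148320892 to 148372644, minus strand). *Disp3* was at 0.775, 1.22 and 1.04 CPM in WT NO, 1.25, 1.75 and 1.24 in WT RA, 0.674, 0.859 and 0.726 in KO NO, and 0.542, 0.715 and 0.0991 in KO RA. All KO RA libraries lay below all WT RA libraries, and KO RA replicate 3 was at the floor with 1 count. The log2 difference of KO RA from WT RA was −1.56 ± 0.56 (adjusted p = 0.202, edgeR's test) and −1.16 ± 0.43 (adjusted p = 0.119) without that library.

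Read together, the 9 genes gave 1 call in 5 comparisons by edgeR's quasi-likelihood test at an adjusted p under 0.05. In KO NO against WT NO 0 of 9 were called, where 1.14% of all tested genes were, and 0 had an unadjusted p under 0.05. Their median log2 difference was −0.16, beside −0.02 over all tested genes. In KO RA against WT RA 0 of 9 were called (background 1.24%), 3 had an unadjusted p under 0.05 (*Gli1* and *Gli2* higher, *Disp3* lower), and the median was 0.26 beside 0.09. In WT RA against WT NO 0 of 9 were called (background 0.406%), 0 had an unadjusted p under 0.05, and the median was 0.25 beside −0.01. In KO RA against KO NO 1 of 9 was called, *Gli2*, where 5.48% of all genes were, and the median was 0.61 beside 0.11. For the difference of the RA responses 0 of 9 and 0.0% of all genes were called, 1 of the 9 had an unadjusted p under 0.05, and the median was 0.42 beside 0.12. Comparisons that share a group share its libraries, so KO RA replicate 3 is in a compared group in 3 of these 5. Through the shared estimate of spread it bears on all 5.

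Without KO RA replicate 3, edgeR's test called 1 of 9 in KO NO against WT NO (*Smo*, lower), where 8.78% of all genes were called. It called 2 in KO RA against WT RA (*Gli1* and *Gli2*, higher, background 9.85%), 0 in WT RA against WT NO (10.8%), and 0 for the difference of the responses (1.34%). In KO RA against KO NO it called 5 of 9, *Smo*, *Ptch1*, *Gli2*, *Gli3* and *Disp1*, all higher, with a background of 16.0%. The receptor, the transducer and 2 of the 3 Gli genes were thus among the genes higher after RA in KO cells in these 11 libraries, while none of the 9 was called after RA in WT cells. For the 5 genes the difference between the RA responses did not pass, with an adjusted p of 0.0536 for *Gli2*, 0.0682 for *Smo*, 0.174 for *Gli3*, 0.244 for *Disp1* and 0.324 for *Ptch1* (edgeR).

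**Figure D3:**
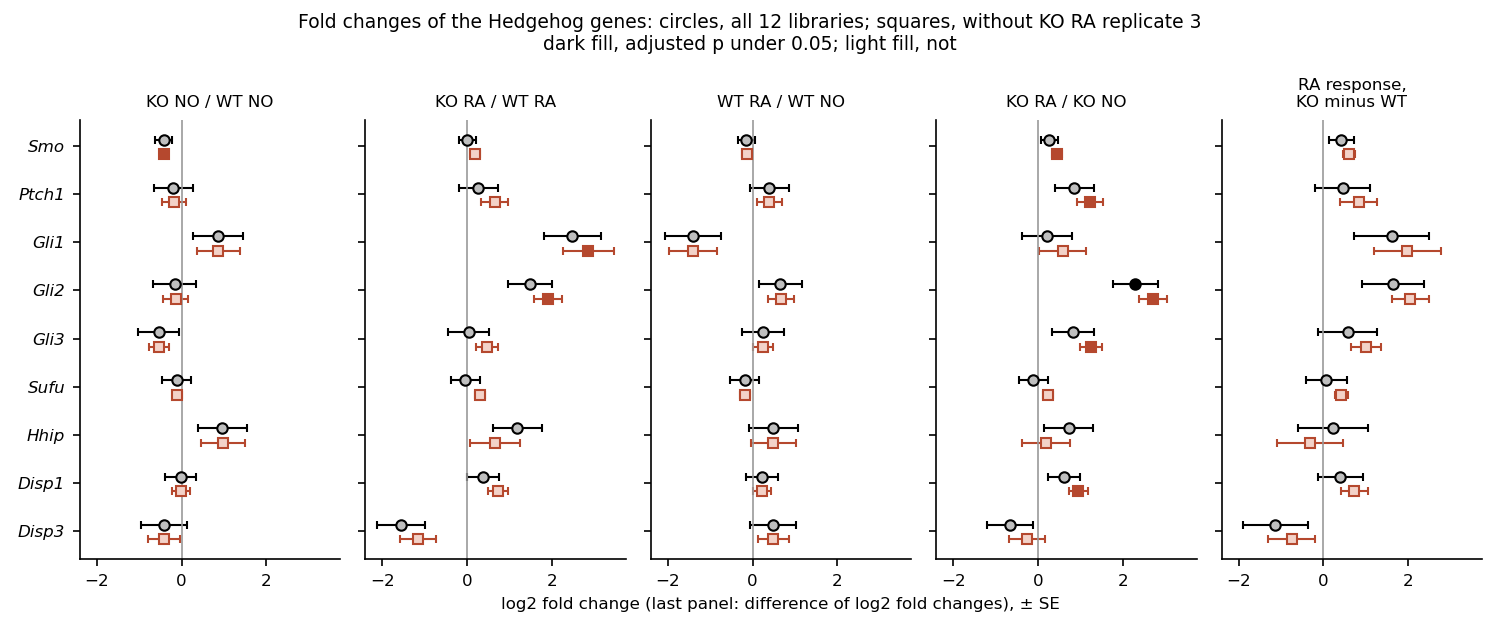
Log2 fold change ± SE (horizontal axis) of the 9 genes in 4 comparisons and the difference of the RA responses, with all 12 libraries (circles) and without KO RA replicate 3 (squares). Only *Gli2* in KO RA against KO NO is called with all libraries, at 2.29, and 5 genes are called there without that replicate.

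Groups without overlap were found for 2 of 9 in KO NO against WT NO (*Gli1* higher, *Smo* lower), where 30.7% of all tested genes had none, and for 2 in KO RA against WT RA (*Gli1* higher, *Disp3* lower, background 20.9%). They were found for 5 in WT RA against WT NO (*Gli2* and *Disp3* higher, *Smo*, *Sufu* and *Gli1* lower, background 29.1%) and for 1 in KO RA against KO NO (*Gli2*, background 30.2%). With DESeq2 on all libraries the calls were *Smo* in KO NO against WT NO (background 6.15%), *Gli1*, *Gli2* and *Disp3* in KO RA against WT RA (7.97%), none of the 9 in WT RA against WT NO (5.60%), *Gli2* in KO RA against KO NO (15.9%), and none of the 9 for the difference of the responses (1.87%). With limma-voom, which gives low weight to libraries that stand apart, they were *Smo* and *Gli3* in KO NO against WT NO (21.6%), *Gli1*, *Gli2* and *Disp1* in KO RA against WT RA (18.1%), none of the 9 in WT RA against WT NO (21.6%), and the same 5 genes as without KO RA replicate 3 in KO RA against KO NO (27.5%). For the difference of the responses limma-voom called *Smo*, *Gli2* and *Gli3* (5.97%), each with a larger RA response in KO.

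The ligands were close to absent. *Shh*, the Hedgehog ligand of the floor plate, had 2 counts in WT NO replicate 1 and 0 in the other 11 libraries. *Dhh* had 0 to 3 counts in all libraries, and *Ihh* 0 to 12, with its highest value in WT NO replicate 3. These 3 were not tested, and levels up to 3 counts were not detectable at this depth. Of 8 genes for ligands and their release, 4 were tested and 0 were called in any comparison. At an unadjusted p under 0.05 there were 1 in WT RA against WT NO and 3 in KO RA against KO NO, and without KO RA replicate 3 *Scube1* and *Scube2*, secreted proteins that help release ligand, were called in the latter, where 16.0% of all genes were.

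Among 8 receptors and co-receptors, all tested, 5 were called in KO RA against KO NO, 3 higher and 2 lower, beside 5.48% of all genes. *Boc*, a co-receptor that helps ligand bind Patched, was at 0.674, 0.977 and 0.698 CPM in KO NO and 8.94, 4.33 and 1.09 in KO RA, and rose by 2.62 ± 0.58 (adjusted p = 0.0276, edgeR's quasi-likelihood test). KO RA replicate 3, at 1.09, was only just above the highest KO NO library. It had 11 counts, where KO NO had 23, 33 and 25, so this margin too rests on its TMM factor. In WT *Boc* was at 1.02, 0.776 and 1.07 CPM before and 3.70, 3.39 and 3.73 after RA, also without overlap (1.91 ± 0.57, adjusted p = 0.196 by edgeR, and called by DESeq2). The glypicans *Gpc4* (1.74 ± 0.28, adjusted p = 0.00703) and *Gpc6* (1.63 ± 0.42, adjusted p = 0.0480), cell surface proteoglycans, also rose in KO by edgeR's test. *Gpc6* was at 1.22 to 1.89 CPM in WT NO and 2.64 to 5.09 in WT RA, again without overlap (1.24 ± 0.42, adjusted p = 0.244, edgeR). For *Boc* and *Gpc6* the RA responses of KO and WT differed by 0.71 ± 0.79 and 0.39 ± 0.58, and neither passed (adjusted p = 0.795 and 0.855, edgeR).

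*Lrp2*, an endocytic receptor that takes up ligand in the neural tube, fell with RA in both genotypes. The log2 difference was −1.87 ± 0.32 in WT (adjusted p = 0.0369) and −1.51 ± 0.32 in KO (adjusted p = 0.0219, edgeR's quasi-likelihood test). *Gas1*, a co-receptor, was at 0.813 to 3.69 CPM in WT NO, 5.30 to 21.7 in WT RA, 2.37 to 4.10 in KO NO and 12.2 to 25.5 in KO RA. RA groups did not overlap NO groups, but neither difference passed with all libraries (adjusted p = 0.125 in WT and 0.0518 in KO, edgeR), and both did without KO RA replicate 3 (0.0319 and 0.0306). *Cdon*, a relative of *Boc*, was at 2.82 to 5.04 CPM in WT NO and 5.95 to 7.04 in KO NO, without overlap and not called (0.68 ± 0.41, adjusted p = 0.591, edgeR).

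Of 24 regulators of Smoothened and Gli, 1 was called in 1 comparison, KO RA against WT RA, where 1.24% of all tested genes were. *Evc*, a cilium protein that binds Smoothened, was at 0.192, 0.388 and 0.478 CPM in WT RA and 7.13, 6.95 and 1.88 in KO RA, and was higher in KO RA by 3.91 ± 0.82 on the log2 scale (adjusted p = 0.0478, edgeR's quasi-likelihood test). Without treatment it was at 0.528, 0.37 and 2.5 CPM in WT and 1.58, 2.01 and 3.21 in KO, which overlapped. *Kif7*, a kinesin that places Gli proteins at the cilium tip, was at 6.44 to 7.54 CPM in WT NO, 5.45 to 5.89 in KO NO, 5.86 to 7.13 in WT RA and 1.29 to 4.83 in KO RA. KO libraries lay below WT libraries in both treatments, and neither difference passed (adjusted p = 0.858 in NO and 0.277 in RA, edgeR). *Gpr161*, a receptor that keeps the pathway off through cAMP, and *Spop*, an adaptor for the breakdown of Gli proteins, were not called in any comparison with all libraries. *Spop* was at 25.8, 30.4 and 28 CPM in KO NO and at 20.5, 18.9 and 17 in KO RA, a log2 difference of −0.57 ± 0.18 (adjusted p = 0.0919, edgeR). None of 25 genes of the cilium and of intraflagellar transport was called in any of the 5 comparisons by that test. Their median log2 difference lay between −0.08 and 0.15, and 2 to 7 of them had an unadjusted p under 0.05 in a comparison. Without KO RA replicate 3 the test called *Cep290* and *Ift27* in KO NO against WT NO, where 8.78% of all genes were called. It called *Ift25* and *Ift88* in WT RA against WT NO (background 10.8%), and *Ift25* and *Ift46* in KO RA against KO NO (16.0%).

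Of 18 ventral and target genes, 11 were tested and 3 rose in KO RA over KO NO, where 5.48% of all genes were called. *Igf2*, a growth factor that Hedgehog signalling can induce, was at 2.81, 2.40 and 2.37 CPM in KO NO and 292, 196 and 192 in KO RA, a rise of 6.48 ± 0.49 (adjusted p = 0.000168, edgeR's quasi-likelihood test). In WT it rose from 7.96, 6.06 and 19.0 CPM to 104, 138 and 86.9 (3.32 ± 0.42, adjusted p = 0.0134), and untreated KO cells had less of it than untreated WT cells, with a log2 difference of −2.12 ± 0.41 (adjusted p = 0.0336). KO RA replicate 3 sat with the other KO RA libraries for this gene. *Bmp4*, a signal of dorsal and mesenchymal tissue, rose by 1.87 ± 0.38 (adjusted p = 0.0193) and *Ccnd2*, a cyclin, by 1.18 ± 0.30 (adjusted p = 0.0465, edgeR). Of the 11, 9 had a log2 difference above 0 in KO RA against KO NO. *Ccnd1* and *Cdk6* were lower there without overlap, and not called by edgeR with all libraries. Mean CPM was 26.8 and 16.4 for *Ccnd1*, and 45.5 and 25 for *Cdk6*, in KO NO and KO RA. In WT *Ccnd1* fell from 29.2 in NO to 7.46 in RA, also without overlap. DESeq2 called *Ccnd1* lower in WT RA against WT NO and *Cdk6* lower in KO RA against KO NO. *Nkx6-2*, a homeobox gene of the ventral neural tube, was at 1.55, 2.00 and 2.59 CPM in WT NO and 0.498, 0.207 and 0.0838 in KO NO, without overlap. Its log2 difference of −2.94 ± 0.65 did not pass with all libraries (adjusted p = 0.0614, edgeR). It was called lower in 5 of 19 alternatives, among them DESeq2, limma-voom, edgeR on the libraries compared and edgeR without KO RA replicate 3. *Foxa2*, a floor plate gene, had 0 to 37 counts over all libraries and was not called in any comparison. The ventral genes *Nkx2-2*, *Nkx6-1* and *Olig2* did not pass the filter on low counts and reached at most 0.481, 1.13 and 0.0903 CPM.

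Of 12 genes of the dorsal and intermediate neural tube, 7 were tested, and 3 were called in KO RA against KO NO (background 5.48%). *Pax3* had 3, 2 and 2 counts in KO NO, all at the floor, and 43, 21 and 2 in KO RA, so that replicate 3 was at the floor too. It was called higher (adjusted p = 0.0315, edgeR's quasi-likelihood test), and the ratio of summed counts was 15.9 (95% interval 7.29 to 41.0, approximate in the same way). *Irx3* rose by 4.05 ± 0.71 (adjusted p = 0.0101) and *Msx1* fell by 2.65 on the log2 scale (SE 0.48, adjusted p = 0.0119, the same edgeR test). *Irx3* was at 11, 11.4 and 0.991 CPM in the KO RA libraries, so its rise was carried by replicates 1 and 2. In WT these genes differed in the same direction without overlap. *Pax3* was at 0.0739 to 0.183 CPM in WT NO and 0.625 to 2.04 in WT RA, *Irx3* at 0.397 to 0.599 and 2.12 to 3.39, and *Msx1* at 3.36 to 8.59 and 1.01 to 1.60. None of the 3 passed edgeR's test there with all libraries (adjusted p = 0.128, 0.172 and 0.103), and each did without KO RA replicate 3 (0.0168, 0.00161 and 0.0246). The difference of the RA responses passed for none of them with all libraries (adjusted p = 0.648 to 0.904, edgeR). *Pax6*, a progenitor gene of the mid and dorsal tube, was lower in KO than in WT in both treatments. It was at 9.30, 8.80 and 4.12 CPM in WT NO and 0.791, 1.10 and 2.01 in KO NO (−2.50 ± 0.45, adjusted p = 0.0264), and at 11.8, 14.6 and 14.9 in WT RA and 4.33, 1.84 and 2.78 in KO RA (−2.21 ± 0.44, adjusted p = 0.0396, edgeR).

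In all, 79 of 95 further pathway genes were tested. By edgeR's test 2 were called in KO NO against WT NO, 2 in KO RA against WT RA, 2 in WT RA against WT NO, 11 in KO RA against KO NO and 0 for the difference of the responses, where 7 had an unadjusted p under 0.05 and were higher and 2 were lower. The shares of all genes called in these comparisons were 1.14%, 1.24%, 0.406%, 5.48% and 0.0%. Without KO RA replicate 3 the pathway counts were 6, 5, 14, 24 and 2, of 83 tested, where the shares of all genes were 8.78%, 9.85%, 10.8%, 16.0% and 1.34%. With all libraries the pathway genes lay above the shares in each comparison of groups, and both were 0 for the difference of the responses. Without KO RA replicate 3 they lay a little below the shares in KO NO against WT NO and KO RA against WT RA. In the other comparisons of that fit they lay above them. Whether any of these counts differs from its share was not tested. The rise of *Igf2* in KO RA over KO NO was called in 20 of 20 alternatives and that of *Gpc4* in 19. The calls of *Gpc6* and *Ccnd2* there held in 7 and 8, that of *Lrp2* in WT in 9, and those of *Pax6* and *Evc* in KO RA against WT RA in 7 of 20 and 8 of 19. Markers of another tissue moved with the same comparison. The summed CPM of 8 mesenchymal markers was 40.7 to 47.3 in KO NO and 159 to 282 in KO RA, 47.4 to 61.8 in WT NO and 80.1 to 146 in WT RA, and 4 of the 8 were called higher in KO RA over KO NO (*Acta2*, *Col1a1*, *Col1a2* and *Col3a1*). Of the 8, 7 had a log2 difference above 0 there. *Thy1* went the other way, from 2.54 to 3.67 CPM in KO NO to 1.26 to 1.98 in KO RA. *Acta2* alone was at 111, 62.3 and 210 CPM in KO RA, a large part of each sum. The 5 endothelial markers summed to 6.04 to 11.1 CPM in KO NO, 12.5 to 22.2 in KO RA, 4.58 to 5.78 in WT NO and 4.73 to 8.05 in WT RA. The defining marker *Cdh5* had 0 counts in all NO libraries, 4, 6 and 1 in WT RA and 58, 65 and 3 in KO RA. Of 4 endothelial markers tested, *Kdr* and *Tek* rose in KO RA over KO NO (4.45 ± 0.97, adjusted p = 0.0253, and 2.40 ± 0.57, adjusted p = 0.0360, edgeR). The 8 neuron markers summed to 72.4 to 90.6 CPM in KO NO and 146 to 208 in KO RA. In WT they summed to 80.8 to 113 CPM in NO and 142 to 164 in RA. The highest sum, 208, was that of KO RA replicate 3, where *Stmn2* alone was at 165 CPM. Of the 8, 6 had a log2 difference above 0 in KO RA against KO NO. The 6 endoderm markers summed to 2.67 to 8.97 CPM and the 5 haematopoietic markers to 1.98 to 5.62 over all libraries. In bulk RNA, more cells of a type and more RNA per cell cannot be told apart, and the part of these cells in the levels of *Gli2*, *Boc* or *Igf2* was not tested.

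**Figure D4:**
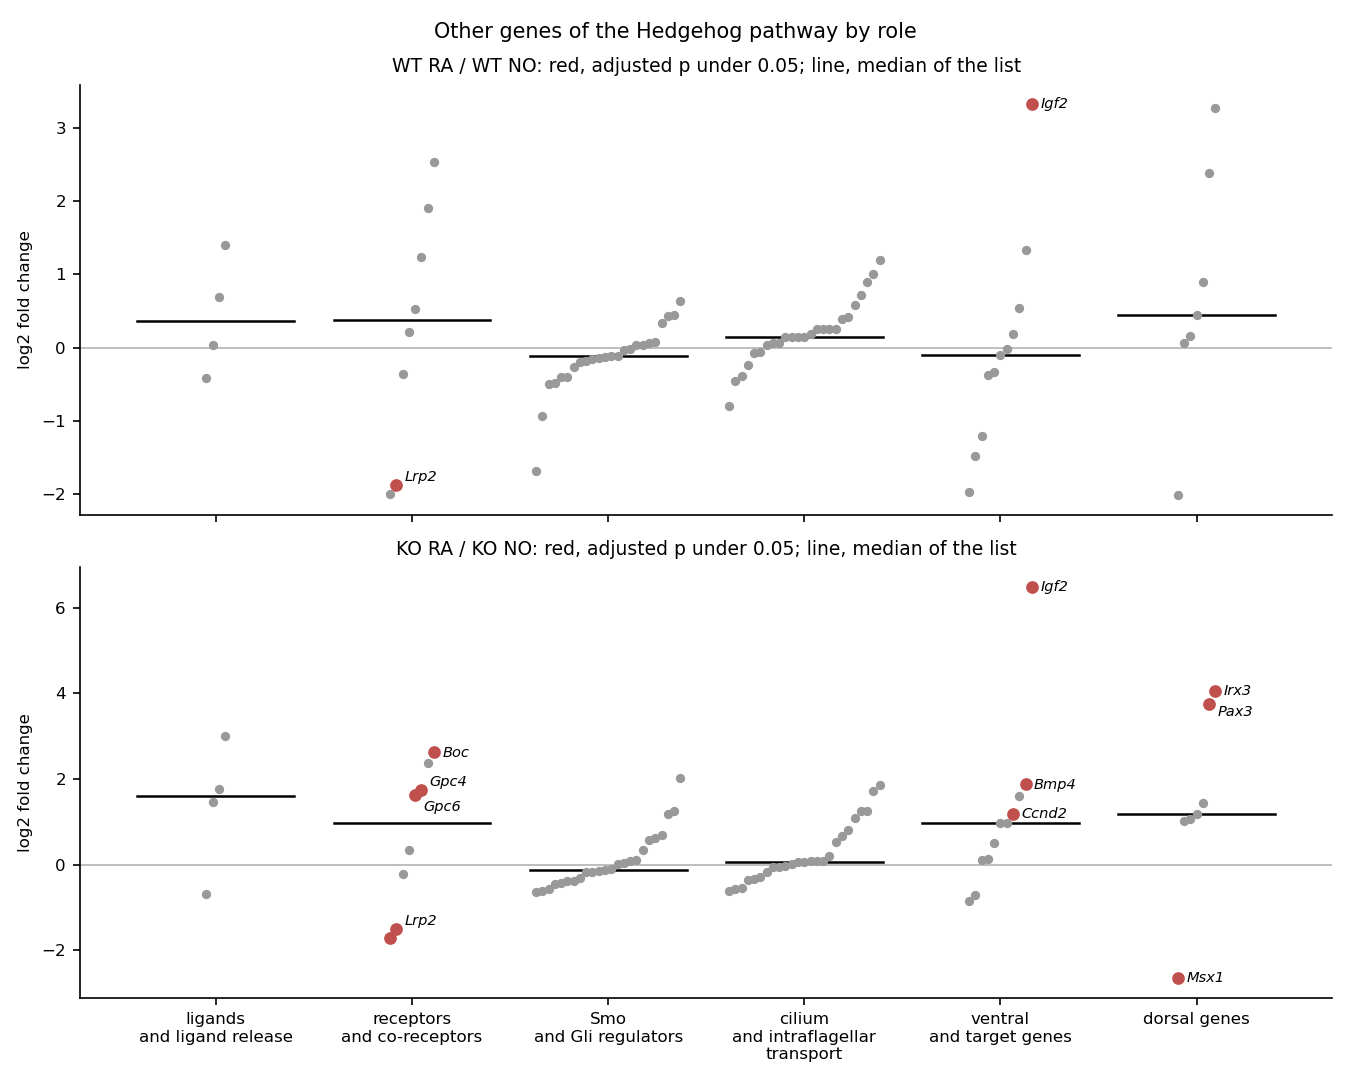
Log2 fold change (vertical axis) of the 79 tested pathway genes by role, with RA in WT (upper panel) and in KO (lower panel, another scale). Red points are called at an adjusted p under 0.05, 2 in WT and 11 in KO, and lines mark the median of each list.

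*Ptch1*, *Gli3*, the co-receptor gene *Gas1* and *Faf2* itself lie on chromosome 13. There the median log2 difference of KO NO from WT NO was −0.36 over 648 tested genes, and 76.7% of these were below 0, where the median over all genes was −0.02 and the medians of the other 19 chromosomes ran from −0.47 to 0.17. *Gli3*, at −0.54 ± 0.49, and *Ptch1*, at −0.19 ± 0.46, lay within 1 SE of the chromosome's median. On chromosome 6 the median was −0.15, and *Smo* was lower than it at −0.42 ± 0.20. The chromosome 13 median was −0.15 in KO RA against WT RA, 0.16 in WT RA against WT NO and 0.37 in KO RA against KO NO. The part of this shift of the whole chromosome in the levels of *Ptch1* and *Gli3* was not tested.

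**Figure D5:**
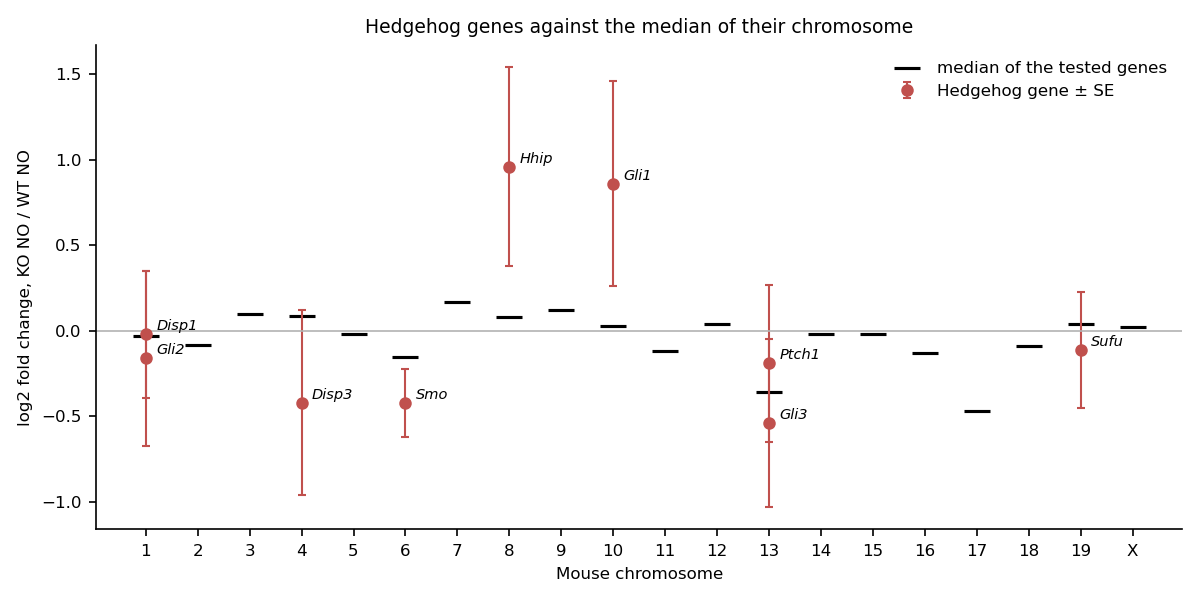
Log2 fold change of KO NO over WT NO (vertical axis) for the 9 Hedgehog genes ± SE, beside the median of the tested genes of each chromosome (bars, horizontal axis). *Gli3* and *Ptch1* sit around the chromosome 13 median of −0.36.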

How the data were processed

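Cultures of NE-4C cells from 3 passages per group were sequenced by the authors as mRNA-Seq libraries with paired ends. The authors ran nf-core/rnaseq with default settings (STAR, Salmon) on GRCm39 and deposited estimated counts per gene, not normalized between libraries. These values fell with exonic length (Spearman −0.685 over 3851 genes above 0 in 1 library), as counts scaled from TPM would, so a count is not a number of fragments. They were rounded and tested with edgeR 4.0.16 (R 4.3.3): filterByExpr, TMM, a robust quasi-likelihood fit of 4 groups on 12 libraries, and Benjamini-Hochberg adjustment over 16502 genes. The test was tried on simulated data first. Standard errors came from the log2 fold change and F. The alternatives were DESeq2 1.42.0, its size factors, 2 other filters, the libraries compared alone, limma-voom 3.58.1, a replicate term and each library left out. DESeq2 on the libraries compared was added later, with the values known. Replicate numbers did not pair the libraries (18 pairs, r = −0.167 to 0.068).

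The 9 genes and the lists were chosen with earlier results of these data known. The genes named are the 9, called pathway genes, the ligands, *Cdon*, *Boc*, *Gas1*, *Kif7*, *Gpr161* and *Spop*, and the 3 genes most like each of *Smo*, *Ptch1* and the called members. *Arhgap9*, *Nkx2-2*, *Nkx6-1*, *Nkx6-2*, *Foxa2*, *Olig2*, *Ccnd1*, *Cdk6*, *Cep290*, *Ift25*, *Ift27*, *Ift46*, *Ift88*, *Scube1*, *Scube2* and single markers of cell types were named after their values were seen. Positions and sequence came from GENCODE vM39 and GRCm39, with the windows read by pysam 0.24.0. Floors of 3 counts and intervals take the scaled values as counts, so they are approximate and cover counting error at most. Genes withheld from the text are not reported here.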

Additional observations from a re-analysis of the deposited data

How the results depend on the processing

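Counts of called Hedgehog genes, given for the effect of KO in NO cells, of KO in RA cells, of RA in WT cells, of RA in KO cells and for the difference of the RA responses, were 0, 0, 0, 1 and 0. They were 1, 3, 0, 1 and 0 with DESeq2 on all libraries, 2, 3, 0, 5 and 3 with limma-voom, and 1, 0, 0 and 1 with DESeq2 on the libraries compared. Leaving out single libraries gave 0 to 1, 0 to 2, 0, 0 to 5 and 0, with each highest count reached without KO RA replicate 3. *Gli2* in KO RA against KO NO was called in 9 of 20 alternatives, and its log2 difference was 1.93 to 2.75 in all of them. The call was lost without WT NO replicate 2, without any WT RA or KO NO replicate and without KO RA replicates 1 or 2 (adjusted p = 0.0505 to 0.136, edgeR). With the replicate block 0 of the 9 genes were called in KO RA against KO NO (*Gli2*, adjusted p = 0.0869, edgeR), and 0, 0, 0, 7 and 0 pathway genes were called. No source used here says whether libraries of 1 number shared a passage, and they did not deviate together, so the lost call is not read as a weaker effect. The cause of the other changes was not tested.

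Pathway genes called, 2, 2, 2, 11 and 0, of 79 tested, became 5, 6, 12, 26 and 2 with DESeq2 (6.15%, 7.97%, 5.60%, 15.9% and 1.87% of all genes), 20, 12, 21, 31 and 6 with limma-voom (21.6%, 18.1%, 21.6%, 27.5% and 5.97%), and 11, 5, 17 and 21 with DESeq2 on the libraries compared (13.2%, 4.54%, 12.8% and 10.6%). EdgeR on the libraries compared gave 0 in KO RA against WT RA (0.108%), 9 in WT RA against WT NO (3.71%) and 1 in KO RA against KO NO (1.28%). At least 10 counts in every library gave 1 in KO NO against WT NO (0.371%) and 0 in KO RA against WT RA (0.691%), and left no value for *Gli1*, *Hhip* and *Disp3*. Leaving out single libraries gave 0 to 6, 0 to 5, 0 to 14, 2 to 24 and 0 to 2, and without WT NO replicate 3 KO RA against WT RA gave 4 (2.47%).

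Of 863 recomputed log2 differences of the 9 genes, 32 changed sign, all in values that had not passed the test. Against WT RA, KO RA values ran over the libraries left out from −0.08 to 0.19 for *Smo*, −0.22 to 0.65 for *Ptch1*, −0.26 to 0.47 for *Gli3* and −0.33 to 0.31 for *Sufu*. They ran from −0.16 to 0.58 for *Gli1* and −0.40 to 0.24 for *Sufu* in KO RA against KO NO, −0.44 to 0.13 for *Gli2* and −0.23 to 0.13 for *Disp1* in KO NO against WT NO, 0.00 to 0.36 for *Disp1* in WT RA against WT NO, and −0.03 to 0.83 for *Ptch1*, −0.21 to 0.42 for *Sufu* and −0.31 to 0.68 for *Hhip* in the difference of the responses. The replicate block gave −0.01 for *Smo* and −0.09 for *Gli3* in KO RA against WT RA, 0.05 for *Disp1* in KO NO against WT NO and 0.00 for *Sufu* in the difference. Limma-voom gave 0.31 and 0.23 for *Sufu* in KO RA against WT RA and KO NO, and −0.26 for *Hhip* in the difference. *Smo* in KO RA against WT RA was −0.03 with no filter, and *Disp1* in KO NO against WT NO was 0.00 on the libraries compared.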

Other observations

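Across the 12 libraries, the genes whose log2 CPM (pseudocount 0.5 CPM) followed *Gli2* most closely were *Fhdc1* (Pearson r = 0.963), *Plxna2* (0.957) and *Ldb1* (0.949). Without KO RA replicate 3 they were *Gsk3b*, which codes for a kinase that phosphorylates Gli proteins (0.970), *Fhdc1* (0.963) and *Jun* (0.961). *Gsk3b* itself was at 24.1, 27.5 and 7.43 CPM in KO RA and 13.2 to 18.8 in the other 9 libraries. For *Ptch1* they were *Fam168a* (0.951), *Zfp362* (0.949) and *Pias3* (0.947) over 12 libraries, and *Six5* (0.944) and *Pias3* (0.942) were among the closest 3 over 11. For *Smo* they were *Ttyh3* (0.953), *Etv1* (0.946) and *Thap2* (0.943) over 12, and *Ptprj* (0.940), *Ttyh3* (0.935) and *Wnk4* (0.934) over 11. The libraries share 4 groups, so these values are a description, and they were the highest of many genes compared.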
